A study of Mus musculus with 48 samples.

Results

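The 7 genes described here encode the cryptochromes Cry1 and Cry2 and 5 proteins that act on the stability of clock proteins: the casein kinases Csnk1d and Csnk1e, the F-box proteins Btrc and Fbxw11, and the kinase Gsk3b. They were taken by name from all 12423 genes listed in both assays, and all 7 were among the 11863 genes tested. Kidneys of male C57BL/6JRj mice aged 11 to 12 weeks, without genetic change or treatment, were collected at 12 timepoints spaced 2 h apart under a light-dark cycle with free access to food, ZT00 being lights-on and ZT12 lights-off. At each timepoint there were 2 replicate pools, each of lysates from 2 mice. The authors describe collection over 2 daily cycles, and the sample titles do not say whether the replicate numbers follow them. Every one of the 24 pools gave 1 library of total RNA (RNA-seq, transcript abundance) and 1 library of ribosome-protected fragments (RPF-seq, footprint abundance), 48 in all. Whole kidney was used, so fewer cells of a type and less RNA per cell cannot be told apart.

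In the mammalian clock, the CLOCK and BMAL1 activators bind E-box sequences and drive the Per and Cry genes, whose protein products enter the nucleus and repress that same activation. The delay of this loop depends on how long PER and CRY proteins last. Casein kinase 1 delta and epsilon phosphorylate PER proteins, which are then recognised by the F-box proteins beta-TrCP1 (Btrc) and beta-TrCP2 (Fbxw11), the substrate adaptors of an SCF ubiquitin ligase. CRY proteins are also degraded by the proteasome, and GSK3 beta phosphorylates several clock proteins, CRY2 among them.

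In the GRCm38 annotation of GENCODE mouse release 21, all 7 are protein-coding genes. Cry1 lies on the minus strand of chromosome 10 (85131700 to 85185064) and Cry2 on the minus strand of chromosome 2 (92403646 to 92434043). Csnk1d (120961749 to 120991330, minus strand) and Fbxw11 (32642724 to 32746816, plus strand) both lie on chromosome 11. Csnk1e is on chromosome 15 (79417856 to 79455566, minus strand), Btrc on chromosome 19 (45363734 to 45530013, plus strand) and Gsk3b on chromosome 16 (38089001 to 38246084, plus strand). The values concern coding exons only, since the authors counted reads on the coding sequence.

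RefSeq promoter sequences (build GRCm38.p6) were matched for 5 of the 7 genes. The 250 bases before the transcription start of Cry1 (chr10:85185055-85185304, minus strand) and Cry2 (chr2:92434070-92434319, minus strand) are shown because these were the members with a large daily rhythm, and E-boxes are the sequences that the clock's activators bind. Capitals mark the E-box CACGTG and the E'-box CACGTT, searched on both strands, where the reverse complement of the latter reads AACGTG.
Cry1: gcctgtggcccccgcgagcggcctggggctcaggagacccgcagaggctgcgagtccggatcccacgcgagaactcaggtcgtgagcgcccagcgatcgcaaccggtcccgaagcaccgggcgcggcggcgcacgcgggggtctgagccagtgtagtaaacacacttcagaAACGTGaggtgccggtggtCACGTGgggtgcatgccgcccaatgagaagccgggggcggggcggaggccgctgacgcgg
Cry2: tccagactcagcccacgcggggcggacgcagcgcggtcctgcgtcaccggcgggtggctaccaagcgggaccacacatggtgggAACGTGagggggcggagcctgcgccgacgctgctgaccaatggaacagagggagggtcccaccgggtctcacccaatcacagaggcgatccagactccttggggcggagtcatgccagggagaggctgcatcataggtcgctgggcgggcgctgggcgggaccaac
The Cry1 window held a CACGTG beginning 60 bases before the start and an AACGTG beginning 79 bases before it, without overlap. The Cry2 window held an AACGTG beginning 166 bases before the start. Of 32851 promoter windows of this length, 6.02% held CACGTG and 3.85% held CACGTT on either strand. The D-box TTATGTAA was searched too and was present in 0.819% of windows. None of the 3 motifs was found in the windows of Csnk1e, Fbxw11 or Gsk3b, which says only that these letters are not in those 250 bases.

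Kidney identity was checked with 9 kidney markers, all above 0 in every library, with a summed level of 6442 to 8137 RPKM in RNA-seq and 9540 to 13040 RPKM in RPF-seq. RPKM is the number of reads scaled to the length of the coding sequence and to the depth of the library. Of 8 markers of other tissues, 4 were listed, and their sum was 22.6 to 47.1 RPKM in RNA-seq and 44.6 to 191 RPKM in RPF-seq. The steps between low RPKM values gave the depth of a library relative to the median library, which was 0.598 to 2.04 in RNA-seq and 0.701 to 1.58 in RPF-seq. In the same way the members' values could be read as whole numbers of reads. The fewest were 47 reads for Cry1 in RNA-seq and 52 in RPF-seq, and the most were 4047 for Fbxw11 in RNA-seq. Csnk1e had a median of 145.5 reads in RNA-seq and 130.5 in RPF-seq, so its values carry the largest counting error among the members by median reads.

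To ask which members change with time of day, a 24-h cosine was fitted to log2(RPKM + 0.1) over the 24 libraries of an assay. A gene was called rhythmic at a false discovery rate (FDR, limma with Benjamini-Hochberg adjustment over all genes tested) under 0.05 with a fitted peak-to-trough fold of at least 1.5. Cry1 and Cry2 were rhythmic in both assays and the 5 others in neither. The 2 of 7 members called compare with 10.2% of all genes tested in RNA-seq and 7.58% in RPF-seq. Translation efficiency (TE) was taken within each pool, as footprint RPKM divided by transcript RPKM. No member passed the rule in TE, as against 3.74% of all genes (limma; 5 of 7 members had an unadjusted p under 0.05). The pseudocount makes folds of genes with low values slightly too small.

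**Figure D1:**
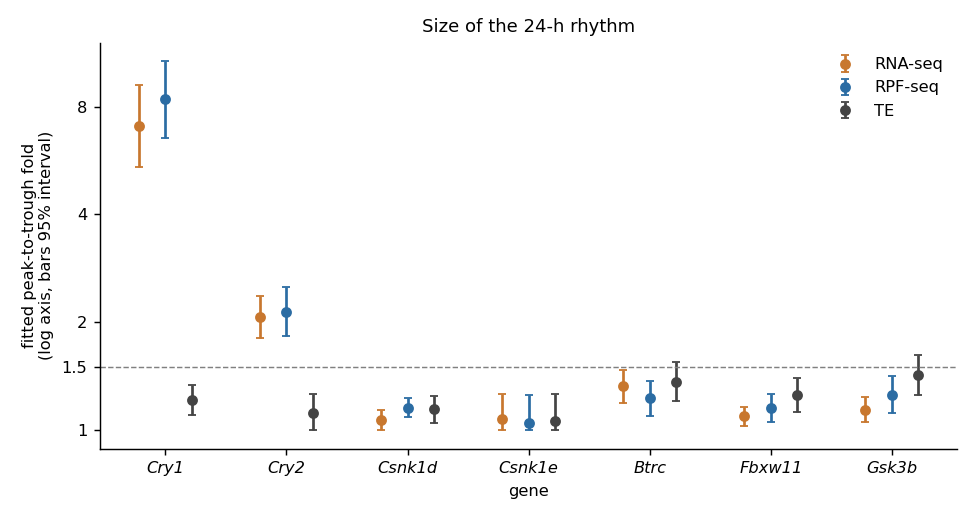
Fitted peak-to-trough fold (log axis) of the 7 genes in RNA-seq, RPF-seq and TE, with bars for the 95% interval (1.96 standard errors on the log2 scale, cut off at 1) over 24 libraries or pools and a dashed line at 1.5-fold. Only the RNA-seq and RPF-seq points of Cry1 (7.04 and 8.38) and Cry2 (2.07 and 2.15) lie above the line.

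Cry1, a repressor of CLOCK and BMAL1, had low transcript abundance in the middle of the light phase and its highest abundance around the middle of the dark phase, from ZT16 to ZT20. Its RNA-seq values in the 2 pools were 10.6 and 8.55 RPKM at ZT00, 7.49 and 5.42 at ZT02, 3.67 and 1.95 at ZT04, 1.53 and 2.21 at ZT06, 2.62 and 1.91 at ZT08, and 4.36 and 5.94 at ZT10. They were 6.57 and 8.05 RPKM at ZT12, 11.3 and 10.4 at ZT14, 14.9 and 13.6 at ZT16, 14.9 and 14.5 at ZT18, 16.8 and 15.4 at ZT20, and 12.6 and 11.8 at ZT22. All 12 values from ZT14 to ZT22 and at ZT00 were above all 12 others. The fitted fold was 7.04 (95% interval 5.41 to 9.17, n = 24), with a peak at ZT 18.5 ± 0.26 h (SE) (limma, adjusted p = 1.6e-10).

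Footprints on Cry1 followed the same course. The RPF-seq values were 7.59 and 6.32 RPKM at ZT00, 6.21 and 3.49 at ZT02, 2.73 and 1.58 at ZT04, 1.31 and 1.80 at ZT06, 1.88 and 1.46 at ZT08, and 3.26 and 4.86 at ZT10. In the dark phase they were 5.00 and 6.47 RPKM at ZT12, 9.71 and 10.3 at ZT14, 13.7 and 12.7 at ZT16, 15.0 and 12.6 at ZT18, 15.4 and 13.1 at ZT20, and 10.7 and 9.79 at ZT22. All 10 values from ZT14 to ZT22 were above all 14 others. The fitted fold was 8.38 (6.55 to 10.7) with a peak at ZT 18.3 ± 0.23 h (limma, adjusted p = 1e-11). The RPF minus RNA peak time was -0.168 h, with a 95% interval from -0.847 to 0.512 h, so no shift between them was resolved. Among all genes tested, the fold of Cry1 lay at the 99.9th percentile in both assays.

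Cry2, the other cryptochrome, had a shallower rhythm that ran several hours earlier. Its RNA-seq values were 5.11 and 4.78 RPKM at ZT00, 6.42 and 4.85 at ZT02, 7.05 and 6.93 at ZT04, 8.39 and 7.60 at ZT06, 9.91 and 11.0 at ZT08, and 10.9 and 10.5 at ZT10. From lights-off they were 11.3 and 11.7 RPKM at ZT12, 12.1 and 11.0 at ZT14, 10.5 and 11.0 at ZT16, 12.5 and 9.29 at ZT18, 8.73 and 7.88 at ZT20, and 7.43 and 7.61 at ZT22. The 4 values at ZT00 and ZT02 lay below all 20 others, and the broad high stretch ran from ZT08 to ZT18. The fitted fold was 2.07 (1.81 to 2.37), with a peak at ZT 13.2 ± 0.36 h (limma, adjusted p = 5.2e-08).

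In RPF-seq, Cry2 stood at 5.07 and 5.52 RPKM at ZT00, 6.60 and 5.33 at ZT02, 7.93 and 7.05 at ZT04, 8.79 and 8.73 at ZT06, 9.87 and 10.7 at ZT08, and 11.9 and 13.6 at ZT10. In the dark phase it stood at 12.1 and 13.6 RPKM at ZT12, 10.9 and 10.9 at ZT14, 13.7 and 13.1 at ZT16, 13.5 and 11.5 at ZT18, 11.4 and 11.2 at ZT20, and 7.58 and 7.87 at ZT22. Both pools at ZT14 lay below both pools at ZT12 and at ZT16, a dip that the cosine does not follow. The fitted fold was 2.15 (1.83 to 2.52), with a peak at ZT 13.7 ± 0.41 h (limma, adjusted p = 6.6e-07). The RPF peak came 0.527 h after the RNA peak, with an interval from -0.541 to 1.60 h.

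**Figure D2:**
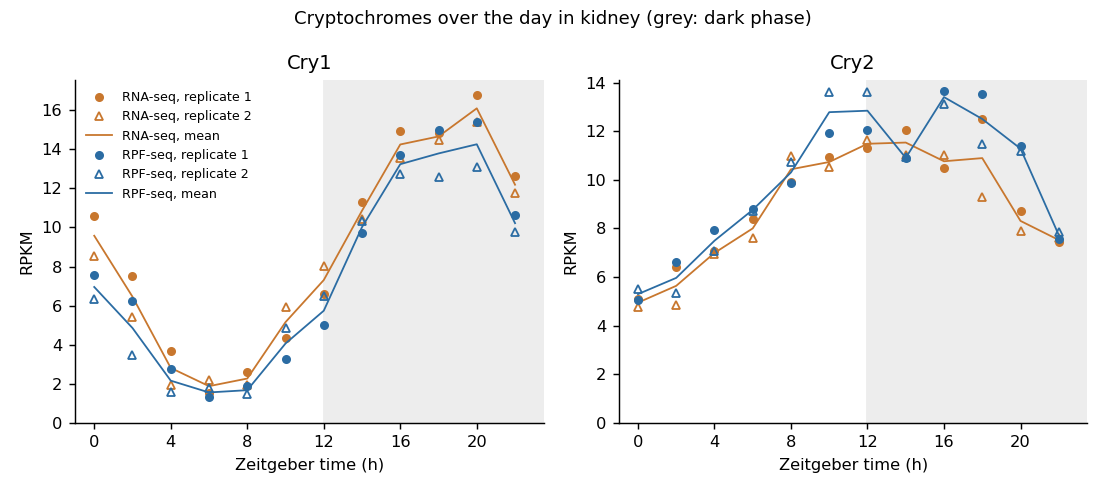
Cry1 and Cry2 in RNA-seq (orange) and RPF-seq (blue) as RPKM against Zeitgeber time in hours, with both replicate pools as symbols, their mean as lines and the dark phase in grey. Cry1 was lowest at ZT06 (mean 1.88 RPKM in RNA-seq) and highest at ZT20 (16.1), whereas Cry2 was lowest at ZT00 (4.94) and highest at ZT14 (11.5).

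Cry1 peaked 5.30 h after Cry2 in RNA-seq (95% interval 4.42 to 6.18 h) and 4.60 h after it in RPF-seq (3.69 to 5.51 h). The balance between the paralogues therefore turned over within a day. The Cry1 share of their summed RPKM ran, as a mean of 2 pools, from 17.88% at ZT08 to 65.97% at ZT20 in RNA-seq, and from 13.98% at ZT08 to 56.93% at ZT22 among footprints. Cry1 exceeded Cry2 in 12 of 24 pools by transcripts and in 9 of 24 by footprints. The sum of both was lowest at ZT04 in either assay, at 9.80 RPKM in RNA-seq and 9.65 in RPF-seq. It was highest at ZT18 in RNA-seq (25.5 RPKM) and at ZT16 in RPF-seq (26.6 RPKM).

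Cry1 carried fewer footprints per transcript than Cry2 in all 24 pools. Its mean TE was 0.825 ± 0.089 (SD, n = 24 pools) and that of Cry2 was 1.11 ± 0.13. The mean difference within a pool, Cry1 minus Cry2, was -0.42 ± 0.20 (SD) on the log2 scale. The TE of Cry1 varied by a fitted 1.22-fold (1.10 to 1.34) with a peak at ZT 16.6 ± 0.99 h, which passed the FDR but not the fold threshold (limma, adjusted p = 0.028). Its lowest timepoint mean was 0.727 at ZT00 and its highest 0.940 at ZT18. Without the first pool of ZT18, which held the highest TE of all (1.01), the adjusted p was 0.052 (limma). For Cry2 the fitted TE fold was 1.11 (1.00 to 1.26; limma, adjusted p = 0.40). The TE timepoint means of Cry2 still ran from 0.947 at ZT14 (pools 0.9025 and 0.9919) to 1.36 at ZT20 (1.30 and 1.42). The 24-h cosine does not follow this difference.

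The genes most like the cryptochromes over the 24 libraries of an assay are given by Pearson's r of log2(RPKM + 0.1), as a description. The libraries are shared by all genes, so these coefficients share depth and normalisation. For Cry1 they included Ippk (r = 0.926), an inositol phosphate kinase, and Aktip (0.897) in RNA-seq. In RPF-seq they included Cpsf6 (0.891), a subunit of the 3' end cleavage machinery, and Ppcdc (0.873), an enzyme of coenzyme A synthesis. For Cry2 the tetraspanin Tspan4 was first in both assays (0.897 and 0.862). It was followed in RNA-seq by Ephx1 (0.878), an epoxide hydrolase, and Car14 (0.864), a carbonic anhydrase, and in RPF-seq by Slc25a42 (0.861), a mitochondrial carrier, and Slc7a9 (0.825), a subunit of the cystine transporter.

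The PER kinases Csnk1d and Csnk1e varied little over the day and differed greatly in level. Csnk1d ran from 37.4 to 44.2 RPKM in RNA-seq (median 41.3) and from 38.4 to 50.0 in RPF-seq (median 44.2). Its fitted fold was 1.07 in RNA-seq (1.00 to 1.14; limma, adjusted p = 0.22). In RPF-seq the fold was 1.16 (1.09 to 1.23) with a peak at ZT 22.4 ± 0.83 h, past the FDR alone (limma, adjusted p = 0.0036). The footprint means were highest at ZT20 (48.2 RPKM, pools 46.4 and 50.0) and lowest at ZT08 (39.2 RPKM, pools 40.1 and 38.4).

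Csnk1e, the close relative of Csnk1d, ran from 5.88 to 9.85 RPKM in RNA-seq (median 7.85) and from 3.27 to 6.80 in RPF-seq (median 4.88). Its fitted folds were 1.07 in RNA-seq (limma, adjusted p = 0.73) and 1.05 in RPF-seq (limma, adjusted p = 0.91). The upper bounds of these folds were 1.26 and 1.25, so a 24-h component above about these sizes was not seen at this depth. Csnk1d exceeded Csnk1e in all 24 pools, by a median of 5.24 times in RNA-seq and 8.86 times in RPF-seq. The mean TE of Csnk1e was 0.636 ± 0.098 and that of Csnk1d 1.06 ± 0.08. The pools of a timepoint differed more for Csnk1e than for Csnk1d, with a replicate SD on the log2 scale of 0.19 against 0.04 in RNA-seq.

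Btrc and Fbxw11, the 2 beta-TrCP adaptors, each showed a small daily component in both assays, but RNA and footprints did not run in parallel. Btrc transcripts were highest at ZT06 (21.99 and 20.92 RPKM) and lowest at ZT18 (14.5 and 13.4 RPKM). The fitted RNA-seq fold was 1.33 (1.19 to 1.48) with a peak at ZT 5.71 ± 0.74 h (limma, adjusted p = 0.00064). The footprints were highest at ZT10 (26.6 and 24.1 RPKM) and lowest at ZT20 (20.1 and 17.7 RPKM). Their fitted fold was 1.23 (1.10 to 1.38) with a peak at ZT 10.9 ± 1.1 h (limma, adjusted p = 0.025). The footprint peak of Btrc thus came 5.22 h after its RNA peak (95% interval 2.66 to 7.78 h), and the difference was 5.17 h and 4.89 h in the replicate series taken singly.

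In TE, Btrc ran from 0.909 to 1.81 with a median of 1.20. Both pools at ZT06 (0.909 and 0.972) lay below all others, and the mean was highest at ZT16 (1.51), where the pools stood far apart at 1.20 and 1.81. The fitted TE fold was 1.37 (1.21 to 1.55) with a peak at ZT 15.1 ± 0.76 h (limma, adjusted p = 0.0061). Without the first pool of ZT10 or of ZT12, the RPF-seq component of Btrc missed the FDR (limma, adjusted p = 0.060 and 0.054).

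Fbxw11 was the member with the highest mean level, at 67.7 ± 3.2 RPKM in RNA-seq and 52.2 ± 4.8 in RPF-seq (SD, n = 24). Its transcripts ran only from 58.9 to 72.8 RPKM, with a fitted fold of 1.09 (1.03 to 1.16) and a peak at ZT 21.9 ± 1.3 h (limma, adjusted p = 0.045). Its footprints were highest at ZT12 (62.7 and 59.6 RPKM) and lowest at ZT04 (47.3 and 45.3 RPKM). Their fitted fold was 1.16 (1.06 to 1.26) with a peak at ZT 11.6 ± 1.2 h (limma, adjusted p = 0.044). The RPF minus RNA peak time of Fbxw11 was -10.4 h (95% interval -13.8 to -6.95 h), and -10.5 h and -8.78 h in the replicate series. The interval takes in exactly opposite times of day, so which of the peaks led was not settled. Both calls of Fbxw11 lay close to the FDR threshold, and leaving out any of 14 single pools in RNA-seq, or any of 12 in RPF-seq, took the adjusted p over it (up to 0.10 and 0.11, limma).

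The TE of Fbxw11 was highest at ZT12 (0.931 and 1.01) and lowest at ZT04 (0.713 and 0.652). The fitted fold was 1.26 (1.13 to 1.40) with a peak at ZT 10.9 ± 0.93 h (limma, adjusted p = 0.020), and this call held without any single pool. Fbxw11 exceeded Btrc in all 24 pools in both assays, by a median of 3.85 times in RNA-seq and 2.43 times in RPF-seq. The TE of Btrc was above that of Fbxw11 in all 24 pools.

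Gsk3b, a kinase of many substrates including clock proteins, had its RNA and footprint maxima at different times of day. The transcripts were highest at ZT02 (49.3 and 49.2 RPKM) and ZT00 (49.3 and 49.1), and lowest at ZT12 (41.9 and 39.2). The fitted RNA-seq fold was 1.14 (1.06 to 1.24) with a peak at ZT 24.0 ± 1.2 h, that is, at lights-on (limma, adjusted p = 0.027). The footprints were highest at ZT16 (57.3 and 65.2 RPKM) and lowest at ZT04 (45.4 and 37.2). Their fitted fold was 1.26 (1.11 to 1.42) with a peak at ZT 13.2 ± 1.0 h (limma, adjusted p = 0.017). The RPF minus RNA peak time was -10.8 h (95% interval -13.8 to -7.77 h). In the replicate series taken singly it was 9.81 h and -7.50 h, both outside that interval on the 24-h circle, so which of the peaks led was not settled. The RNA-seq call was lost without any of 5 single pools (limma, adjusted p of 0.051 to 0.054).

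The TE of Gsk3b had a fitted fold of 1.43 (1.26 to 1.63), which overlaps that of Btrc, with a peak at ZT 12.7 ± 0.70 h (limma, adjusted p = 0.0037). It was highest at ZT12 (1.42 and 1.38) and lowest at ZT04 (0.994 and 0.782). The call held without any single pool. The fitted fold was 1.48 in the first replicate series alone and 1.40 in the second, with peaks at ZT 12.1 and 13.5 h.

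**Figure D3:**
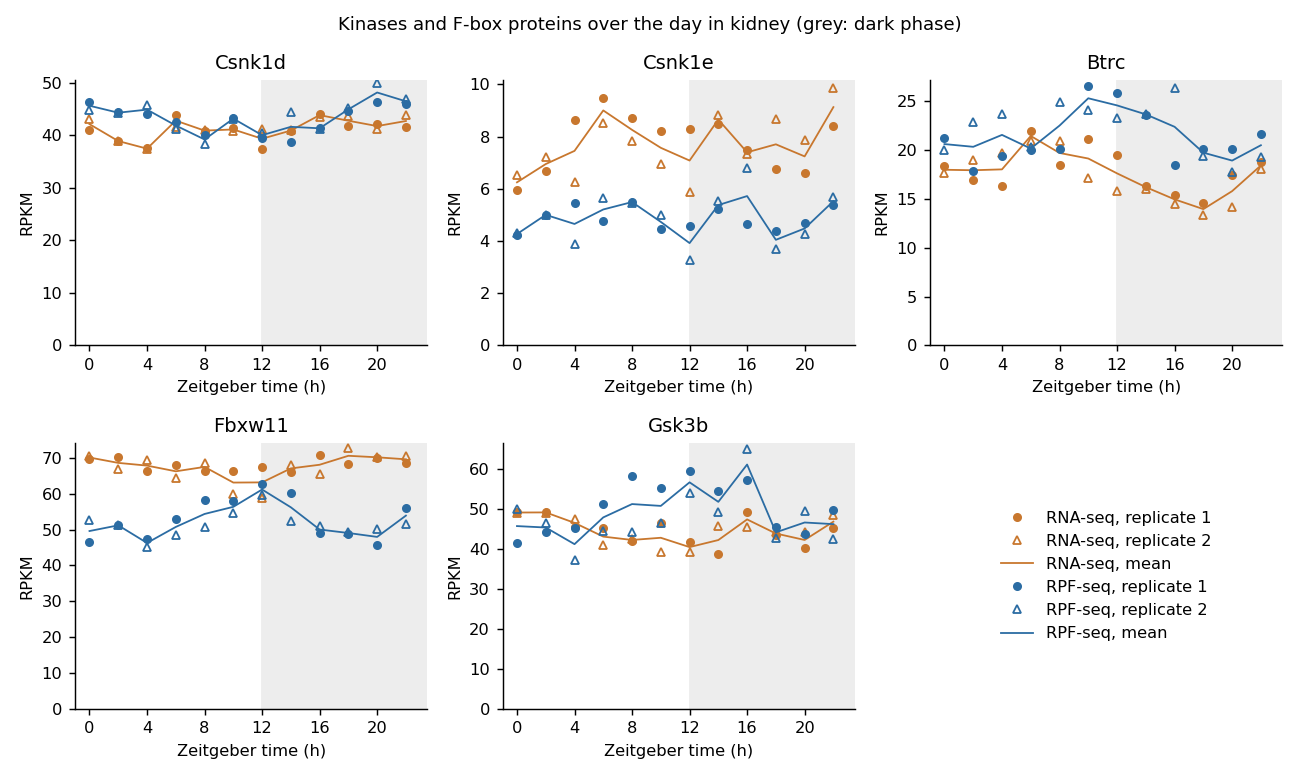
Csnk1d, Csnk1e, Btrc, Fbxw11 and Gsk3b in RNA-seq (orange) and RPF-seq (blue) as RPKM against Zeitgeber time in hours, with both replicate pools as symbols, their mean as lines and the dark phase in grey. The Fbxw11 footprints reach 61.2 RPKM at ZT12, where its transcripts are near their lowest (63.2 RPKM), and the mean of the Gsk3b footprints exceeds that of its transcripts from ZT06 to ZT20.

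Counted by the FDR alone, a 24-h component was present in the transcripts of 5 of 7 members, the footprints of 6 and the TE of 4. The background was 48.6% of all genes tested for transcripts, 30.9% for footprints and 17.1% for TE. The median fold of the 7 members was 1.14 for transcripts, 1.23 for footprints and 1.22 for TE, beside 1.20, 1.18 and 1.19 over all genes. Among all genes, the folds of the 5 turnover factors lay between the 9.85th (Csnk1d) and the 74.0th percentile (Btrc) in RNA-seq, and the TE fold of Gsk3b lay at the 89.6th. Depth moved with time of day as well, with a median relative depth of 1.14 in the light and 0.812 in the dark phase for transcript libraries, and 1.18 and 0.910 for footprint libraries. Its part in the small components was not tested. The TE peaks of the 4 members fell between ZT 10.9 and 16.6 h. Of all 2028 genes past the FDR in TE, 33.0% peaked from ZT06 to ZT12 and 23.5% in the next 6 h.

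**Figure D4:**
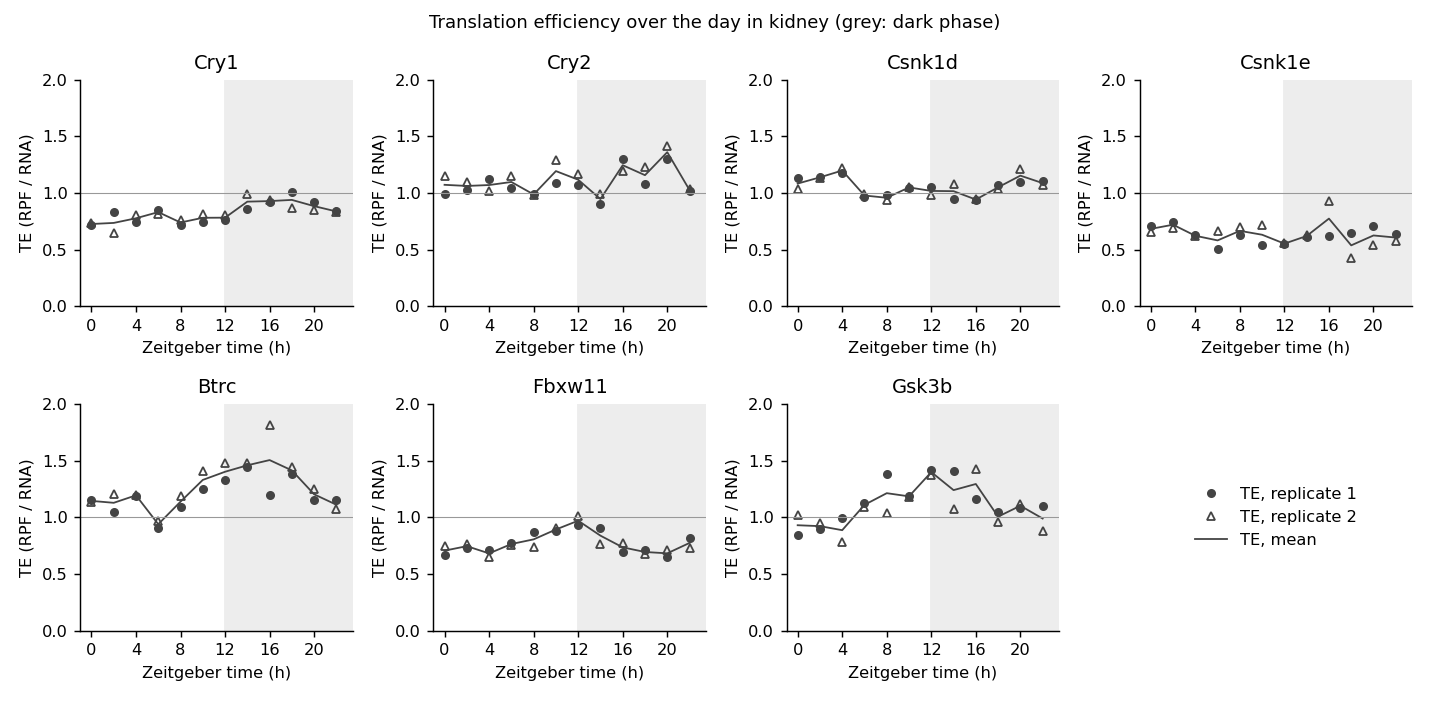
Translation efficiency (RPF RPKM over RNA RPKM of the same pool) of the 7 genes against Zeitgeber time in hours, with both replicate pools as symbols, their mean as a line, a thin line at 1 and the dark phase in grey. Gsk3b and Btrc reach their highest means, 1.40 and 1.51, at ZT12 and ZT16, whereas Csnk1e stays below 1 in all 24 pools.

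Ordered by mean log2 level in RNA-seq, the members ran Fbxw11, Gsk3b, Csnk1d, Btrc, Cry2, Csnk1e and Cry1. The gaps from Fbxw11 to Gsk3b, from Csnk1d to Btrc and from Btrc to Cry2 held in all 24 libraries. The other gaps were smaller than the SD of the log2 difference between libraries, which is a description and no test. Gsk3b was above Csnk1d in 19 of 24 libraries (0.11 ± 0.13), Cry2 above Csnk1e in 14 (0.17 ± 0.42) and Csnk1e above Cry1 in 10 (0.15 ± 1.13). In RPF-seq the order was the same but for Cry1, which stood above Csnk1e, in 15 of 24 pools, and Fbxw11 was above Gsk3b by 0.09 ± 0.14 (SD), in 21 of 24 pools. By TE the order was Btrc, Cry2, Gsk3b, Csnk1d, Cry1, Fbxw11 and Csnk1e. Only the gap from Csnk1d to Cry1 (0.35 ± 0.21) exceeded its spread among those neighbours, and it held in all 24 pools.

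Around these 7 genes, a list of 34 other factors of CRY stability, the SCF core, clock kinases and phosphatases and other turnover enzymes was examined, of which 32 were tested. In each assay 2 of the 32, Usp2 and Fbxl21, passed the rhythm rule, which is no larger a share than the 10.2% and 7.58% of all genes. Usp2, a deubiquitinase, had an RNA-seq level of 26.8 to 59.9 RPKM and a fitted fold of 2.09 (1.85 to 2.35) with a peak at ZT 12.5 ± 0.31 h (limma, adjusted p = 4e-09). Its RPF-seq fold was 2.11 (1.818 to 2.448) with a peak at ZT 13.3 ± 0.39 h (limma, adjusted p = 3e-07). Fbxl21, an F-box protein that binds CRYs, was of low level, at a median of 4.55 RPKM in RNA-seq and 1.17 in RPF-seq. Its fitted folds were 1.52 in RNA-seq (1.27 to 1.83; limma, adjusted p = 0.0026) and 2.22 in RPF-seq (1.74 to 2.83; limma, adjusted p = 0.00012), with peaks at ZT 8.49 and 8.66 h.

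The RNA-seq call of Fbxl21 was lost without the second replicate series by the FDR (1.56-fold; limma, adjusted p = 0.085). It was lost by the fold without single pools, at 1.43 without the first pool of ZT10, 1.46 without the first of ZT18, and 1.494 and 1.497 without the second pools of ZT08 and ZT16. By the FDR alone, 16 of the 32 listed genes had a component in transcripts, 9 in footprints and 12 in TE, beside 48.6%, 30.9% and 17.1% of all genes. None passed the full rule in TE, beside 3.74% of all genes (limma; 19 had an unadjusted p under 0.05). The median fold of the list was 1.18 for transcripts, 1.13 for footprints and 1.21 for TE.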

How the data were processed

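Total RNA and ribosome-protected RNA were sequenced from the same kidney lysate pools. The authors trimmed the reads with cutadapt, mapped them with Bowtie2 2.2.1 and TopHat2 2.0.11 (GRCm38.p2), counted those on coding sequences, normalised libraries by upper quantiles with edgeR and deposited the resulting RPKM of each gene by library. Upper quantile normalisation hides changes in total RNA or footprints over the day. How reads shared by paralogues were assigned is not given in the sources used here.

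From these, 12423 genes were listed in both assays and the 11863 whose median reached 0.5 RPKM in each were tested. A 24-h cosine and sine were fitted to log2(RPKM + 0.1), or to the RPF minus RNA difference within a pool (TE), with limma 3.58.1 in R 4.3.3 (moderated F test with a mean trend, Benjamini-Hochberg adjustment). The samples were 2 pools at each of 12 timepoints. The p-values weigh the 24-h component against the spread left around the fit. That spread holds both differences between pools and departures of timepoint means from the cosine. Intervals are 1.96 standard errors. Values were handled with Python 3.11.15 and pandas 2.3.3, and the fit was tested on simulated data. Read numbers and relative depths came from the steps between values: in each assay, all 150 low genes used lay on whole steps within a tolerance of 0.001. They served as a description of depth, which limits precision.

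Named genes were the 7 members, listed turnover genes past the rhythm rule, and the 3 genes most correlated with each rhythmic member per assay, of which some are not reported here. The members and lists were chosen with earlier results of these data known. Ppp1ca and Fbxw7 of the turnover list were not analysed here. Alternatives were other pseudocounts, filters, thresholds and normalisation, AIC selection, an added 12-h harmonic, a replicate block, and leaving out pools.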

Additional observations from a re-analysis of the deposited data

Results flagged for a closer look

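For 4 of the 7 genes, the RNA-seq and RPF-seq profiles over the day differed by the test of the difference itself, the 24-h component of TE (limma, Benjamini-Hochberg adjustment over all genes). The adjusted p was 0.0037 for Gsk3b, 0.0061 for Btrc, 0.02 for Fbxw11 and 0.028 for Cry1 (limma). In each of them the TE fold stayed under 1.5, at 1.43, 1.37, 1.26 and 1.22. The RPF minus RNA peak time was -10.8 h for Gsk3b, -10.4 h for Fbxw11, 5.22 h for Btrc and -0.168 h for Cry1. For Gsk3b it was 9.81 h and -7.50 h in the replicate series. The intervals of Gsk3b and Fbxw11 take in exactly opposite times of day, so which peak led was not settled for either. For Cry1 the footprint fold (8.38) was larger than the RNA fold (7.04). Past this threshold were 17.1% of all genes tested.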

How the results depend on the processing

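Cry1 and Cry2, and no other member, were called rhythmic in RNA-seq and RPF-seq, and no member in TE, under all 35 alternatives run. The counts by the FDR alone were less stable. An FDR of 0.01 left 3 members for transcripts, 3 for footprints and 2 for TE, and 5 listed turnover genes in RPF-seq and 2 in TE. With the fold threshold as well, it left 215 of all genes in TE, beside 444 in the main fit. AIC selection in place of the FDR gave 28, 21 and 24 listed genes for transcripts, footprints and TE without the fold threshold. With that threshold it gave 1 listed gene and 727 of all genes in TE. The all-gene share without the fold threshold is not given here for either setting. The 12-h harmonic gave 2 listed genes past the full rule in TE and 6 by the FDR alone. With a pseudocount of 1, 781 genes were rhythmic in RNA-seq and 590 in RPF-seq. Fbxl21 lost its RNA-seq call, leaving 1 listed gene, with a pseudocount of 1, with quantile normalisation and with an RPKM minimum of 2, which removed it from both assays (1 gene left in RPF-seq too). The Cry1 TE component missed the FDR with a pseudocount of 1 (1.14-fold; limma, adjusted p = 0.12).

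With pools left out, singly or as a replicate series, the members past the FDR alone ranged from 2 to 5 for transcripts, 2 to 6 for footprints and 0 to 4 for TE. Listed genes past the full rule ranged from 1 to 2 for transcripts, 2 to 3 for footprints and 0 to 1 for TE, and by the FDR alone from 3 to 22, 2 to 11 and 0 to 14. Over all genes the ranges by the full rule were 722 to 1430 for transcripts, 370 to 956 for footprints and 0 to 478 for TE. The value of 0 came from limma without the first replicate series, where 1858 genes and 3 members had an unadjusted p under 0.05. These all-gene ranges are no background for the counts by the FDR alone, whose all-gene share with pools left out is not given here. None of the 4 TE components of members passed the FDR in either replicate series alone. By the stricter full rule, 0 genes in all passed without the first series and 2 without the second. The TE folds of the 4 members in the first and second series were 1.23 and 1.25 for Cry1, 1.28 and 1.47 for Btrc, 1.29 and 1.22 for Fbxw11, and 1.48 and 1.40 for Gsk3b. Deviations of same-numbered pools at different timepoints correlated at a mean of 0.029 in RNA-seq. The range was -0.18 to 0.48, with 13 of 66 pairs of timepoints over 0.1. In RPF-seq the mean was 0.020 (-0.20 to 0.19, 10 of 66 over 0.1). Positive and negative values cancel in such a mean, so it cannot show whether some timepoints shared a batch. The replicate block gave 1214, 895 and 455 rhythmic genes in RNA-seq, RPF-seq and TE, and 2, 2 and 0 members. RPKM values leave counting error unmodelled, and Csnk1e and the Cry1 trough rest on few reads.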
